A study of Mus musculus with 13 samples.

Results

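Transcripts of 10 genes of the E2F and retinoblastoma families (E2f1 to E2f8, Rb1 and Rbl1) were followed in splenic dendritic cells sorted by surface CD103, with and without muramyl dipeptide (MDP). The genes were listed by name, with earlier results of these data known. The shares of all genes given beside their counts are therefore a description and not a test. Each was read from its probe set with a single gene symbol, and from the one with the highest mean where a gene had several, which gave 10 of the 22180 genes measured in this way. The cells were CD205+CD8+ dendritic cells of C57Bl/6 littermates, 6 weeks old and labelled male, in which a subcutaneous B16 melanoma secreting Flt3L had grown for 5 days. Flt3L is a growth factor that expands dendritic cells, and every group carried this tumour. Mice were given an intraperitoneal injection of 100 ul PBS that held 50 ug MDP, a bacterial wall fragment sensed by the receptor NOD2, or of PBS alone, and spleens were collected after 24 h. The 13 arrays comprised MDP CD103 high (n = 3), MDP CD103 low (n = 3), PBS CD103 high (n = 3) and PBS CD103 low (n = 4) cells. The sort followed the injection, and whether each gate held equivalent cells after MDP and PBS was not tested. No label says that each array came from a separate mouse, so p-values measure the spread between these samples, which may be technical.

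E2F proteins bind the promoters of genes for DNA synthesis and cell division. E2f1, E2f2 and E2f3 are classed as activators, E2f4 and E2f5 as repressors that act with pocket proteins, and E2f6 as a repressor found with polycomb proteins. E2f7 and E2f8 are atypical repressors that bind DNA without a dimer partner and are themselves made as cells enter S phase. The pocket proteins, among them the retinoblastoma protein of Rb1 and p107 of Rbl1, hold E2F proteins inactive until cyclin-dependent kinases phosphorylate them. The activity of the activators accompanies division.

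E2F genes are known to be under E2F control themselves, so the promoter windows of the members were searched for E2F sites. The sites were spelt TTTCCCGC, TTTGGCGC, TTTGCCGC and TTTCGCGC and were looked for on both strands from 250 bases before to 50 bases after each start site in RefSeq (GRCm38.p6). Of the 7 members with a window, E2f2, E2f3, E2f7 and Rbl1 had 1 such site, which makes 4 of 7 (57.1%). Of all 27025 genes with a window, 2.60% had one, and of all 32851 windows 2.26%. Only 1 E2F site was found in each of E2f2, E2f3, E2f7 and Rbl1, so none overlapped another. E2f1, E2f6 and E2f8 held none in their windows, and E2f4, E2f5 and Rb1 had no window. The windows of E2f1 and E2f8 lay wholly inside the annotated gene, so its outermost start was not searched. The 250 bases before the start site are printed for E2f7 and Rbl1, both called below, with the site in capitals. The E2f7 stretch is chr10:110745189-110745438 on the plus strand, with the site on the strand opposite to the gene and beginning 198 bases before the start. The Rbl1 stretch is chr2:157204535-157204784 on the minus strand, with the site on the strand of the gene and beginning 18 bases before the start.
E2f7: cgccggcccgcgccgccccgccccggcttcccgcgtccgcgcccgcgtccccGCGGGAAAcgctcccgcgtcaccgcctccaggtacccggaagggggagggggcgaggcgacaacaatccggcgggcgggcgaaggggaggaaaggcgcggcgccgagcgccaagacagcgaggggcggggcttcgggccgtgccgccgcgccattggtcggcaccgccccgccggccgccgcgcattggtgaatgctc
Rbl1: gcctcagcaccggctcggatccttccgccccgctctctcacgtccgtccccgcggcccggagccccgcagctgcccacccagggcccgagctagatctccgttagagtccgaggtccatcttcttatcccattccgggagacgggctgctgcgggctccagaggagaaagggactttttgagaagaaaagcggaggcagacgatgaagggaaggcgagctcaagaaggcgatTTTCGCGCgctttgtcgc
In E2f2 the site lay on the strand of the gene from base 40 after the start, and in E2f3 on the opposite strand from 11 bases before it. The shorter CHR element, TTTGAA or TTTAAA, which the MuvB complex recognises in promoters of late cell cycle genes, occurred in 27.6% of all windows. Among the members, E2f2, E2f3 and E2f8 held it, beginning 31, 23 and 20 bases before a listed start. In E2f2 it lay in another window (chr4:136180532-136180831), which held no E2F site. In E2f3 it lay in the window of the E2F site and did not overlap that site. These matches are letters in a window and do not show binding.

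All 11 measured markers of type 1 conventional dendritic cells lay above background, among them Cd8a at 10.37 and Ly75, which encodes CD205, at 9.30, and the mean of the list was 10.74 to 11.18 in every array on the log2 scale. Itgae, which encodes CD103, averaged 11.35 in MDP CD103 high, 10.13 in MDP CD103 low, 10.15 in PBS CD103 high and 7.92 in PBS CD103 low cells. The Itgae mean of MDP CD103 low cells thus lay near that of PBS CD103 high cells. Gates of the same name differed in Itgae between the treatments. Although all mice were labelled male, Xist was 10.98 to 11.21 in 7 arrays and 4.47 to 6.69 in the other 6. Y-linked transcripts ran the opposite way, with array means of 3.5 to 4.39 in those 7 and 7.85 to 8.21 in the other 6. The 7 arrays thus had the pattern of female cells, against their label. The low Xist values were in 1 of 3 MDP CD103 high, 2 of 3 MDP CD103 low, 1 of 3 PBS CD103 high and 2 of 4 PBS CD103 low arrays, so every group held both patterns. MDP CD103 low replicate 1 stood apart in 15 measured genes of mature, Ccr7-positive dendritic cells, with a mean of 8.86, where replicates 2 and 3 had 7.69 and 7.73. All 10 members had a mean above 5.11, the 95th percentile of 1088 olfactory receptor genes, which served as a measure of background.

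**Figure D1:**
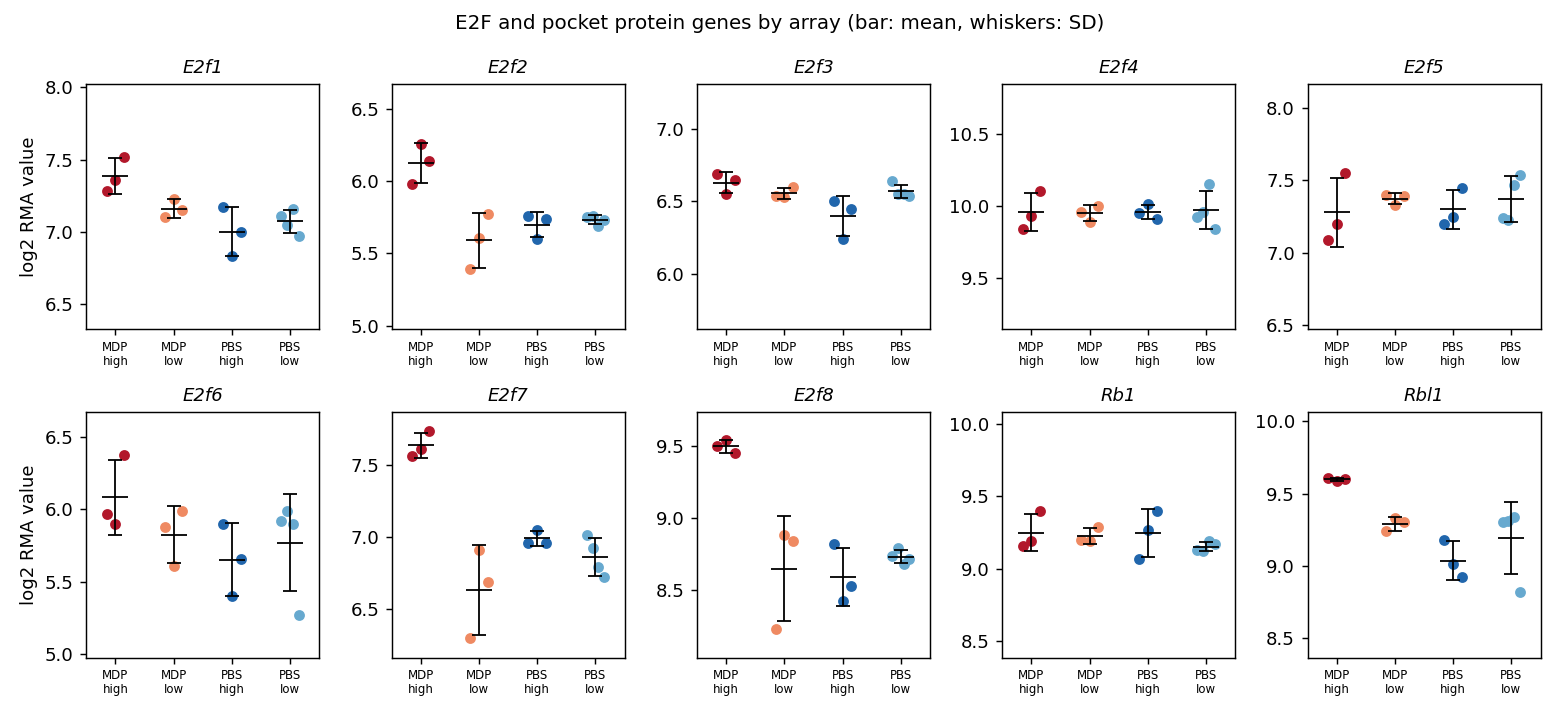
Log2 RMA values of the 10 genes in each array (points), with the mean and SD of each group (bar and whiskers). All panels span the same height of scale, and MDP CD103 high arrays lie above all others for E2f1, E2f2, E2f7, E2f8 and Rbl1, while the groups overlap for E2f4, E2f5 and Rb1.

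Both atypical repressors were highest in the CD103 high cells of MDP mice. E2f8 (Entrez gene 108961, probe set 17491378) measured 9.50, 9.54 and 9.45 in MDP CD103 high cells and 8.82, 8.43 and 8.53 in PBS CD103 high cells. In CD103 low cells it measured 8.23, 8.88 and 8.84 after MDP and 8.74, 8.79, 8.68 and 8.72 after PBS. The MDP CD103 high arrays lay above every other array, and the other groups overlapped one another. In limma, E2f8 was 1.87-fold higher in MDP than in PBS CD103 high cells, a log2 difference of 0.90 ± 0.15 (SE, n = 3 each, adjusted p = 0.0100).

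E2f7 (Entrez gene 52679, probe set 17237186) measured 7.56, 7.61 and 7.73 in MDP CD103 high cells and 6.96, 7.05 and 6.96 in PBS CD103 high cells. In CD103 low cells it measured 6.30, 6.91 and 6.69 after MDP, against 7.01, 6.92, 6.79 and 6.72 after PBS. The MDP CD103 high arrays again lay above all others, and the lowest value was that of MDP CD103 low replicate 1. Within the CD103 high gate it was 1.57-fold higher after MDP than after PBS (log2 difference 0.65 ± 0.13, SE, adjusted p = 0.0237).

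Of the pocket proteins, Rbl1 rose with MDP in CD103 high cells. It measured 9.61, 9.59 and 9.60 there, against 9.18, 9.01 and 8.92 in PBS CD103 high cells. In CD103 low cells it was 9.24, 9.33 and 9.30 after MDP and 9.30, 9.31, 9.34 and 8.82 after PBS. The difference in CD103 high cells was 0.56 ± 0.12 (SE, adjusted p = 0.0338), or 1.48-fold, and the arrays did not overlap. Rbl1 (Entrez gene 19650, probe set 17393684) encodes p107, which binds E2f4 in cells that cycle.

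Rb1 (Entrez gene 19645, probe set 17308570), the retinoblastoma gene, averaged 9.25 ± 0.13 in MDP CD103 high cells and 9.25 ± 0.17 in PBS CD103 high cells (SD, n = 3 each). It averaged 9.23 ± 0.05 in MDP CD103 low cells (n = 3) and 9.15 ± 0.04 in PBS CD103 low cells (n = 4). The 95% interval of the MDP difference was -0.19 to 0.20 in CD103 high and -0.11 to 0.26 in CD103 low cells. A second Rb1 probe set lay under the background measure in every group, with means of 4.51, 4.42, 3.95 and 4.01 in the same order of MDP CD103 high, MDP CD103 low, PBS CD103 high and PBS CD103 low cells. Another 2 probe sets listed with both Lpar6 and Rb1 were not used.

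Among the activators, E2f1 and E2f2 lay close to the threshold and E2f3 did not. E2f2 (Entrez gene 242705, probe set 17420024) measured 5.98, 6.26 and 6.14 in MDP CD103 high cells and 5.76, 5.60 and 5.74 in PBS CD103 high cells. It was 5.39, 5.61 and 5.77 in MDP CD103 low cells, against 5.75, 5.76, 5.69 and 5.73 in PBS CD103 low cells. The MDP CD103 high arrays lay above all others, with a log2 difference from PBS CD103 high cells of 0.43 ± 0.10 (SE) that missed the threshold (adjusted p = 0.0523).

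E2f1 (Entrez gene 13555, probe set 17393160) measured 7.28, 7.36 and 7.52 in MDP CD103 high cells and 7.17, 6.83 and 7.0 in PBS CD103 high cells. In CD103 low cells it measured 7.10, 7.23 and 7.15 after MDP and 7.11, 7.05, 7.16 and 6.97 after PBS. Its difference in CD103 high cells was 0.39 ± 0.10 (SE, adjusted p = 0.0661), with no overlap between the groups. E2f3 (Entrez gene 13557, probe set 17291559) averaged 6.63 ± 0.07 in MDP and 6.40 ± 0.14 in PBS CD103 high cells (SD), a difference of 0.23 ± 0.08 (SE, adjusted p = 0.198). Its means were 6.56 ± 0.03 in MDP and 6.57 ± 0.05 in PBS CD103 low cells (SD).

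The repressors that act with pocket proteins differed little between groups. E2f4 (Entrez gene 104394, probe set 17504715) had means of 9.96, 9.95, 9.96 and 9.97 in MDP CD103 high, MDP CD103 low, PBS CD103 high and PBS CD103 low cells, and its 13 values spanned 9.84 to 10.15. The 95% interval of its MDP difference was -0.20 to 0.20 in CD103 high cells and -0.20 to 0.16 in CD103 low cells. E2f5 (Entrez gene 13559, probe set 17396132) had means of 7.28, 7.38, 7.30 and 7.37 in the same 4 groups, with an interval of -0.29 to 0.24 in CD103 high cells. E2f6 (Entrez gene 50496, probe set 17274202), the polycomb-associated member, spanned 5.27 to 6.38. It averaged 6.08 ± 0.26 in MDP and 5.66 ± 0.25 in PBS CD103 high cells (SD), a difference of 0.43 ± 0.20 (SE, adjusted p = 0.372) with overlapping arrays.

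In all, 3 of the 10 members (E2f7, E2f8 and Rbl1) passed an adjusted p of 0.05 for MDP against PBS in CD103 high cells, all higher. Among all genes 1.82% passed in either direction and 1.42% were higher. The median difference was 0.41 over the members and -0.01 over all genes. All MDP arrays lay above all PBS arrays for 6 members, namely E2f1, E2f2, E2f3, E2f7, E2f8 and Rbl1, and for 8.96% of all genes. The count moved when single arrays were left out. E2f8 alone passed without any 1 of the MDP CD103 high replicates 2, 3 and 4, with an adjusted p of 0.0493, 0.0499 and 0.0299. No member passed without PBS CD103 high replicate 5 or 6, where the smallest adjusted p was 0.0610 and 0.0602, both for E2f8. Without PBS CD103 high replicate 4, E2f7 was lost (adjusted p = 0.0606) and E2f1 passed (adjusted p = 0.0309). Without MDP CD103 low replicate 3, Rbl1 was lost (adjusted p = 0.0507) and E2f2 passed (adjusted p = 0.0385), and E2f2 also passed without MDP CD103 low replicate 1 (adjusted p = 0.0205). In bulk samples, more cells that express a gene and more RNA per cell cannot be told apart.

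In CD103 low cells no member passed for MDP against PBS (0 of 10), beside 0.00451% of all genes, and 0 had an unadjusted p under 0.05, beside 6.06% of all genes. The 1 gene that passed was a marker of type 1 conventional dendritic cells, higher after MDP. In this gate Itgae was 9.64 to 10.68 after MDP and 7.46 to 8.35 after PBS. The members' differences ran from -0.23 ± 0.12 for E2f7 (SE, adjusted p = 0.821) to 0.09 ± 0.11 for Rbl1 (adjusted p = 0.912), and 5 lay above 0. The values of E2f8 and E2f2 were -0.08 ± 0.14 and -0.14 ± 0.09. The 95% interval for E2f8 was -0.38 to 0.22 here and 0.58 to 1.22 in CD103 high cells. The interaction given next compares the gates, and E2f8 did not pass there (adjusted p = 0.0880).

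The difference between the MDP responses of the gates was tested as an interaction. No member passed, beside 0.0721% of all genes, and 6 of 10 members had an unadjusted p under 0.05, beside 9.63% of all genes. The response in CD103 high minus that in CD103 low cells was 0.98 ± 0.20 for E2f8 (SE, adjusted p = 0.0880), 0.87 ± 0.18 for E2f7 (adjusted p = 0.0860) and 0.57 ± 0.14 for E2f2 (adjusted p = 0.133). It was 0.47 ± 0.17 for Rbl1 (adjusted p = 0.368) and 0.02 ± 0.12 for E2f4 (adjusted p = 0.974). E2f8 passed without PBS CD103 high replicate 4 (adjusted p = 0.0441). With same-numbered arrays of a treatment as a random replicate block, no member passed (adjusted p = 0.0602 for E2f7 and 0.0625 for E2f8), while 41 genes did, against 16 without it. With all arrays, E2f7 and E2f8 also passed when genes of low level were filtered out (adjusted p = 0.0358 and 0.0372) and with a variance trend and robust fit (adjusted p = 0.0376 for each).

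**Figure D2:**
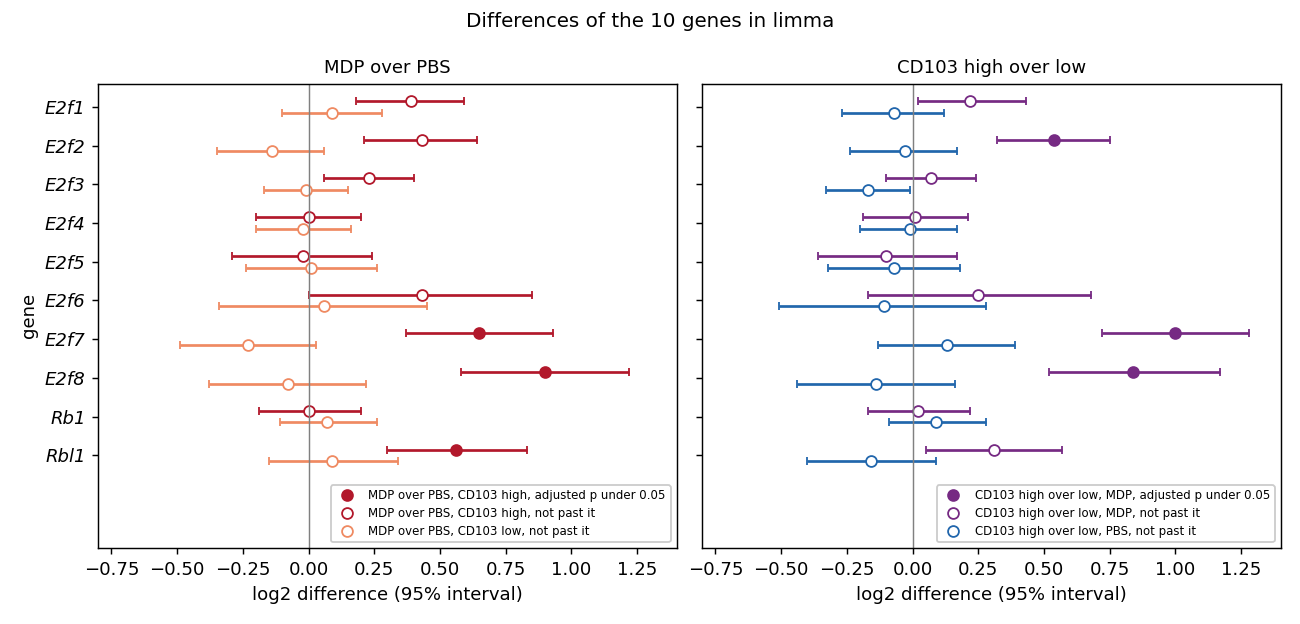
Log2 differences of the 10 genes with 95% intervals, for MDP over PBS within each gate (left) and CD103 high over low within each treatment (right). Filled points, which passed an adjusted p of 0.05, are E2f7, E2f8 and Rbl1 for MDP in CD103 high cells and E2f2, E2f7 and E2f8 for CD103 high over low cells of MDP mice, while the intervals of E2f4, E2f5 and Rb1 include 0 throughout.

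Between the gates of MDP mice, 3 of 10 members were higher in CD103 high cells and none was lower, beside 0.523% of all genes in either direction and 0.473% higher. E2f7 was higher by 1.00 ± 0.13 (SE, adjusted p = 0.0152), with means of 7.64 ± 0.09 in CD103 high and 6.63 ± 0.31 in CD103 low cells (SD, n = 3 each). E2f8 was higher by 0.84 ± 0.15 (SE, adjusted p = 0.0258), at 9.49 ± 0.05 against 8.65 ± 0.37 (SD). E2f2 was higher by 0.54 ± 0.10 (SE, adjusted p = 0.0340), at 6.12 ± 0.14 against 5.59 ± 0.19 (SD). Rbl1 and E2f1 did not overlap between the gates either, yet missed the threshold, with differences of 0.31 ± 0.12 (SE, adjusted p = 0.378) and 0.22 ± 0.10 (adjusted p = 0.437). Higher values without overlap were seen for 5 members and 6.43% of all genes. With the random replicate block the same 3 members passed (adjusted p = 0.00694 for E2f7, 0.0164 for E2f8 and 0.0198 for E2f2), and the number of genes past the threshold was 190, against 116 without the block.

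MDP CD103 low replicate 1 had the lowest value of its group for E2f1, E2f2, E2f7, E2f8 and Rbl1. Without it E2f7 was the 1 member that passed (adjusted p = 0.0205), and the differences were 0.839 for E2f7, 0.633 for E2f8 and 0.435 for E2f2. E2f7 was also the 1 member that passed without MDP CD103 high replicate 4 (adjusted p = 0.0368), and none passed without replicate 2 or 3, where E2f7 had an adjusted p of 0.0594 and 0.0749. Without MDP CD103 low replicate 2, PBS CD103 high replicate 5 or PBS CD103 low replicate 1, 3 or 4, E2f2 was lost and the other two kept their calls. With the arrays split by Xist as a block, E2f7 alone passed (adjusted p = 0.0283), and when only the arrays of both MDP groups were fitted none did (adjusted p = 0.130 for E2f7).

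Between the gates of PBS mice no member passed, beside 0.0766% of all genes, and 1 of 10 members had an unadjusted p under 0.05, beside 8.52% of all genes. That was E2f3, with a difference of -0.17 ± 0.07 (SE, adjusted p = 0.558) and lower values in all 3 CD103 high arrays than in the CD103 low arrays, which also held for 4.05% of all genes. E2f8 differed by -0.14 ± 0.14 (adjusted p = 0.858), Rbl1 by -0.16 ± 0.11 (adjusted p = 0.765) and E2f7 by 0.13 ± 0.12 (adjusted p = 0.837). In all, 2 of 10 members lay above 0. Of the 4 pathway lists described next, 1 gene passed here, the G1 kinase gene Cdk6, with lower values in the CD103 high gate (log2 difference -0.87 ± 0.13, SE, adjusted p = 0.0328).

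The partners and regulators of these proteins were described from lists of pathway genes, also chosen with earlier results of these data known. Among all genes, 1.42% were higher with MDP in CD103 high cells. Of 10 E2F partners and MuvB subunits, 3 rose with MDP in CD103 high cells and none fell, with a list median of 0.33. These were Mybl2 (0.71 ± 0.11, SE, adjusted p = 0.00631) and Foxm1 (0.73 ± 0.13, adjusted p = 0.0159), both transcription factors that act with MuvB late in the cycle, and Tfdp1 (0.51 ± 0.10, adjusted p = 0.0287), the dimer partner of typical E2F proteins. Rbl2, which encodes the pocket protein p130, differed by 0.06 ± 0.09 (adjusted p = 0.845). Of 17 measured cyclins, kinases and kinase inhibitors that act on pocket proteins, 7 rose and none fell, with a median of 0.19. Those with the smallest p were Cdk6 (0.85 ± 0.14, adjusted p = 0.00842), a kinase of G1, Ccna2 (0.72 ± 0.14, adjusted p = 0.0218), which encodes cyclin A2, and Cdkn2d (0.57 ± 0.12, adjusted p = 0.0302), an inhibitor of Cdk4 and Cdk6. Cdk6 was not highest in MDP CD103 high cells. It averaged 7.63 there, 7.96 in MDP CD103 low, 6.78 in PBS CD103 high and 7.65 in PBS CD103 low cells. Of 11 measured genes for E2F turnover and partners of E2f6, Skp2 (0.86 ± 0.11, adjusted p = 0.00428) and Fbxo5 (0.79 ± 0.15, adjusted p = 0.0162) rose. Skp2 is part of a ubiquitin ligase for cell cycle inhibitors, and Fbxo5 inhibits the anaphase-promoting complex.

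Of 25 measured genes of G1/S and DNA synthesis that are known E2F targets, 22 rose with MDP in CD103 high cells, none fell and the median was 0.78. Among all genes 1.42% were higher in this comparison. Cdc6, a loader of the replicative helicase, was higher by 1.27 ± 0.16 (SE, adjusted p = 0.00428). Uhrf1, which maintains DNA methylation, was higher by 0.91 ± 0.12 (adjusted p = 0.00468), and the repair gene Brca1 by 1.03 ± 0.14 (adjusted p = 0.00491). Averaged over the targets, levels were 8.78 in MDP CD103 high, 8.23 in MDP CD103 low, 8.0 in PBS CD103 high and 8.22 in PBS CD103 low cells. The median of 0.78 was thus measured against the group with the lowest level. Within PBS mice the targets tended to be lower in the CD103 high gate (median difference -0.24, 3 of 25 positive), though none passed. Between the gates of MDP mice 7 of the 25 were higher, beside 0.473% of all genes. Among the 7 was Rrm2, a subunit of ribonucleotide reductase (1.07 ± 0.15, adjusted p = 0.0180). In CD103 low cells none passed for MDP, with a median of 0.02. Tk1, which encodes thymidine kinase, and Slbp, which binds histone transcripts, had the smallest p there, with differences of -0.17 ± 0.07 (SE, adjusted p = 0.805) and 0.17 ± 0.12 (adjusted p = 0.838). In the same comparison of MDP CD103 high with MDP CD103 low cells, 2 of 10 partners (Mybl2 and Foxm1), 1 of 17 cyclins, kinases and inhibitors (Cdk1) and 1 of 11 turnover genes (Fbxo5) were higher. These counts also moved with single arrays. For MDP in CD103 high cells, 10 of the 25 targets rose without MDP CD103 high replicate 2, 10 without its replicate 3 and 19 without its replicate 4. Leaving out PBS CD103 high replicate 5 left 6 targets and leaving out replicate 6 left 5, while none fell in any of these fits. Without MDP CD103 high replicate 2 or 3 or PBS CD103 high replicate 5 or 6, 1 partner, 1 of the 17 cyclins, kinases and inhibitors and 1 turnover gene rose, and 3 of the 17 did without MDP CD103 high replicate 4. With only the arrays of both CD103 high groups fitted, 13 targets, 1 partner and 1 of the 17 rose. Between the gates of MDP mice, 1 target, none of the partners, none of the kinases and inhibitors and none of the turnover genes passed without MDP CD103 low replicate 1, and no target passed without MDP CD103 high replicate 2 or 3. With the random replicate block, 3 of the 17 cyclins, kinases and inhibitors and 4 of 9 late cell cycle genes were higher between these gates, against 1 and 2 without it.

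With MDP in CD103 high cells, late cell cycle genes were higher and genes of mature dendritic cells lower. Among all genes 1.82% passed in either direction there. Of 9 measured late cell cycle genes, 4 rose with MDP in CD103 high cells (Bub1, Top2a, Aurkb and Kif11, with differences of 0.79 to 0.89), and the list mean was 8.72 to 9.05 in MDP CD103 high, 7.82 to 8.45 in MDP CD103 low, 8.06 to 8.48 in PBS CD103 high and 8.27 to 8.49 in PBS CD103 low arrays. Of 15 measured genes of mature dendritic cells, 4 fell with MDP in CD103 high cells and none rose. These were the migration receptor Ccr7 (-1.80 ± 0.34, SE, adjusted p = 0.0194), the chemokine Ccl5 (-2.24 ± 0.47, adjusted p = 0.0311), Relb (-1.07 ± 0.24, adjusted p = 0.0413) and the costimulator Cd80 (-0.62 ± 0.14, adjusted p = 0.0465). Both counts moved with single arrays. Without MDP CD103 high replicate 2 or 3 or PBS CD103 high replicate 5 or 6, none of the 15 fell and none of the 9 late cell cycle genes rose. Without MDP CD103 high replicate 4 or PBS CD103 high replicate 4, 2 of the 15 fell, and without MDP CD103 low replicate 1, 9 fell and 6 late cell cycle genes rose. The mean of the mature genes was 6.96 to 7.27 in MDP CD103 high, 7.69 to 8.86 in MDP CD103 low, 7.76 to 8.15 in PBS CD103 high and 7.58 to 7.85 in PBS CD103 low arrays. In MDP CD103 low replicate 1 the late cell cycle mean was the lowest of all arrays, at 7.82, and the mature mean the highest. The part of dividing or mature cells in the differences of the E2F genes was not tested.

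**Figure D3:**
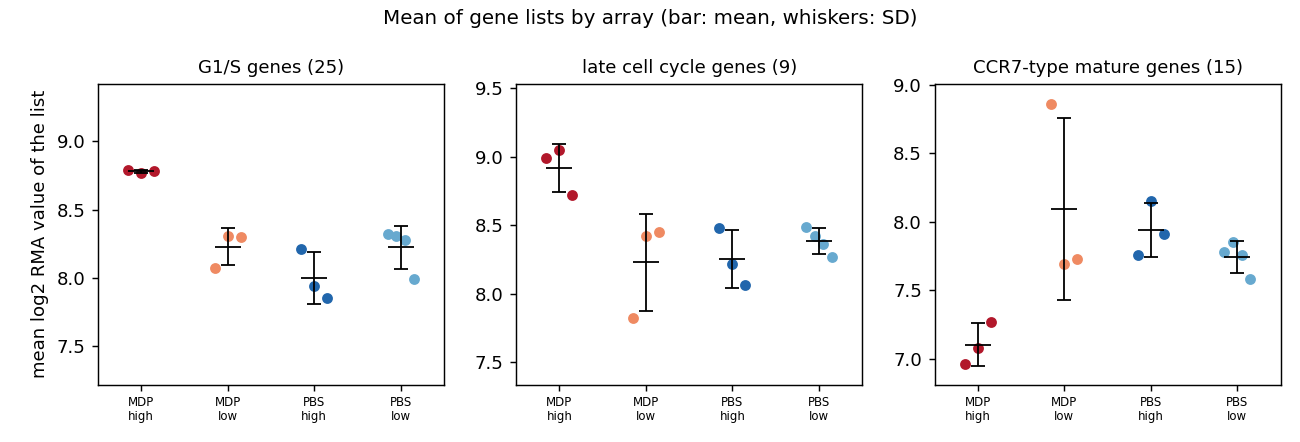
Mean log2 RMA value of 3 gene lists in each array (points), with the mean and SD of each group (bar and whiskers). The G1/S genes lie at 8.77 to 8.79 in MDP CD103 high arrays, above all others, and the mature genes at 6.96 to 7.27, below all others, where MDP CD103 low replicate 1 is the highest point.

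Markers of other cell types differed in how many lay above the background measure. These were 5 of 8 for type 2 conventional dendritic cells, 7 of 8 for plasmacytoid dendritic cells, 7 of 8 for monocytes and macrophages and 6 of 8 for haematopoietic progenitors. They were 2 of 7 for B cells, 2 of 6 for T cells, 2 of 7 for natural killer cells, 1 of 8 for neutrophils, 1 of 4 for erythroid cells and 3 of 7 for melanoma. The plasmacytoid marker Pacsin1 fell with MDP in CD103 high cells (-0.77 ± 0.14, SE, adjusted p = 0.0130) and was higher in CD103 high than low cells of PBS mice (0.90 ± 0.13, adjusted p = 0.0294), and the type 2 marker Sirpa was lower in CD103 high than low cells of MDP mice (-0.50 ± 0.09, adjusted p = 0.0308). Pacsin1 averaged 5.28 and Sirpa 5.65 over all arrays, where the background measure was 5.11. The median of the plasmacytoid list was -0.06 for MDP in CD103 high cells. The mean of 8 neutrophil markers was 3.79 to 3.99 over all arrays and that of 6 measured T cell markers 4.81 to 5.03. The 7 measured B cell markers averaged 5.57 to 5.83, where Ighm was high at 11.52 and Cd79a low at 3.87. No other marker of these lists passed in any of the 5 comparisons, and the part of such cells in the differences of the E2F genes was not tested. The progenitor list averaged 7.19 to 7.28 in MDP CD103 high, 7.31 to 7.56 in MDP CD103 low, 7.08 to 7.32 in PBS CD103 high and 7.27 to 7.35 in PBS CD103 low arrays.

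The genes with the most similar profiles were sought by Pearson correlation over the 13 arrays among 11089 other genes above the median level, as a description without a test. The groups and the arrays are shared by all genes, so any gene that follows the groups scores high. E2f8 was most like Pole, a replicative DNA polymerase (r = 0.98), Bub1, a kinase of the spindle checkpoint (0.97), and Pclaf, a PCNA-binding protein (0.97). E2f7 was most like Rrm2 (r = 0.97), the mitotic kinase gene Mastl (0.96) and Mxd3 (0.95), and E2f2 most like Stmn1, a regulator of microtubules (0.94), Esco2, which acetylates cohesin (0.93), and Tcf19 (0.93). Rbl1 was most like the primase gene Prim1, the ubiquitin ligase gene Rfwd3 and the origin recognition gene Orc6, each with r = 0.96. Rb1 reached lower values, with 0.85 for Gramd2, 0.84 for Fbxo42 and 0.82 for Atxn2. Among the members themselves, r was 0.92 for E2f2 with E2f8, 0.89 for E2f2 with E2f7, 0.88 for E2f7 with E2f8, 0.85 for E2f1 with Rbl1 and 0.81 for E2f1 with E2f8, and below that for all other pairs.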

How the data were processed

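RNA of sorted CD205+CD8+ splenic dendritic cells was measured on 13 arrays. Per the labels' protocols, the input was 400 ng of RNA, amplified before hybridisation. The authors deposited 1 log2 value per probe set and array. RMA and Affymetrix Expression Console are named in the submitters' processing notes, with no version in the sources used here. Such normalization equalises the distributions of the arrays, so a change shared by most genes would be removed. Array medians were 5.00 to 5.13, Pearson correlations between arrays were 0.976 to 0.991, and 0 pairs were identical. Of 41345 probe sets, 23521 had 1 gene symbol, 1814 had several and 16010 were not listed. All 10 members matched RefSeq by gene ID.

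The table of 22180 genes was fitted in limma 3.58.1 (R 4.3.3) with 1 mean per group over all arrays, 9 residual and 3.86 prior degrees of freedom, and 5 two-sided contrasts, with Benjamini-Hochberg adjustment over all genes and a threshold of 0.05. No gene was filtered. The number of arrays limits the precision. The script was tested on simulated data. Tables and plots used Python 3.11.15, pandas 2.3.3, numpy 2.4.6, scipy 1.17.1 and matplotlib 3.10.9.

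The members and gene lists were chosen with earlier results of these data known. All members are named. From the lists, up to 3 genes per direction with the smallest p are named, and 2 for a list without calls. Rbl2, the fourth called late cell cycle and mature gene, Cd8a, Ly75, Itgae, Ighm and Cd79a were added after their values were seen. Alternatives covered probe set choice, a low-value filter, array centring, the variance model, array weights, the arrays fitted, blocks for replicate number and Xist, adjustment over all probe sets, and each array left out. The random block and the list counts without single arrays were added after seeing the data.

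The replicate numbers recur across groups without a stated meaning. Deviations from the group means correlated above 0.1 in all 4 same-numbered pairs of CD103 high and low arrays of a treatment (r from 0.196 to 0.372), and all 4 shared the Xist class. Across treatments 2 of 5 same-numbered pairs lay above 0.1 (r from -0.236 to 0.45), and these were the 2 that shared the Xist class. Pairs of PBS CD103 high and low arrays with the same Xist class but different numbers had r from 0.12 to 0.172. Such pairs of MDP arrays had -0.071 and 0.07. Within a treatment, the 4 same-numbered pairs thus had higher r than the pairs that shared only the Xist class. The reason for this was not tested. The numbers were taken, as an assumption, to pair arrays within a treatment and not across treatments, from the data and not from a label. The fit with this pairing as a random block is given beside the results it moves.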

Additional observations from a re-analysis of the deposited data

Results flagged for a closer look

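In PBS CD103 low cells, the one group of 4 arrays, 3 of 10 members had 1 array far from the other three, by Dixon's ratio of the gap to the range. Rbl1 was 8.82 in replicate 6, where the next value was 9.30 (ratio 0.919). E2f6 was 5.27 in replicate 6, where the next value was 5.90 (ratio 0.880). E2f3 was 6.64 in replicate 1, where the next value was 6.55 (ratio 0.904). Chance alone marks about 1 group in 20. With either of these arrays left out, no member passed for MDP against PBS in CD103 low cells. The mean of the 25 G1/S genes was 7.99 in replicate 6, the lowest of its group.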

How the results depend on the processing

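Of 50 differences (10 members in 5 contrasts), 6 passed the threshold, and none of these 6 changed sign in any of 23 alternatives each. Of the other 44, 18 changed sign in at least 1 alternative, and 4 passed in at least 1. For MDP against PBS in CD103 high cells the count of 3 members was 5 with the low-value filter, with the variance trend and robust fit and with array weights, 1 with adjustment over all probe sets, and 0 to 4 with 1 array left out. For CD103 high against low cells of MDP mice the count of 3 was 1 with the Xist block, 0 with adjustment over all probe sets, 0 with only the arrays of the groups compared, and 0 to 3 with 1 array left out. For the interaction the count of 0 was 2 (E2f7 and E2f8) with the low-value filter and with the variance trend and robust fit, and 0 to 1 with 1 array left out. In the other contrasts it stayed 0 in every alternative run. With same-numbered arrays as a fixed replicate block, also across treatments, which leaves 4 residual degrees of freedom, 0 members and 0 genes passed in every contrast. The differences in CD103 high cells were then 0.643 for E2f8, 0.545 for E2f7 and 0.33 for Rbl1 (adjusted p = 0.391, 0.542 and 0.513), the last less by over 1.5 times. A random replicate block within treatment, chosen after seeing the data, gave 3 and 3 members in the first and second of these comparisons and changed no member's call. The mean of its probe sets moved Rb1 to 0.284 in CD103 high cells (adjusted p = 0.200). Genes past the threshold numbered 0 to 702 over the alternatives for MDP in CD103 high cells (403 as reported) and 0 to 233 for the gates of MDP mice (116), 0 to 25 for the gates of PBS mice (17), 0 to 144 for the interaction (16) and 0 to 2 for MDP in CD103 low cells (1). Some of these fits test fewer genes or fewer arrays, and the cause of the shifts was not tested. The number of arrays limits the precision.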
